A study of Mus musculus with 15 samples.

Results

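The 38 genes described here are interferon-stimulated genes of mouse liver, that is, genes whose transcription is switched on by interferons. They are the rows of the deposited expression table whose symbols stand on a list of 38 well-known members of that program, and all 38 were found among the 17527 genes of the table. The table covers mouse liver, as 15 libraries in 3 groups of 5 each. It was made to ask how biotransformed bear bile powder (BBBPH, in the sample titles JDH) alters the liver in a diet-induced nonalcoholic steatohepatitis, a fatty and inflamed state of the liver.

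Model mice received, for 20 weeks, a diet with 60% of its energy from fat, 20% from protein and 20% from carbohydrate, with 0.2% cholesterol, and drank water with 42 g/L of sugar (55% sucrose, 45% fructose). After week 12 they were given saline by mouth every day while the diet went on. BBBPH mice had the same diet and water and, from the same week, 150 mg/kg of the powder daily by mouth. The dosed group held 14 mice according to the labels, and 5 libraries of that group are in the table. What the control mice ate, and the strain, sex and age of the animals, are not stated. Nor do the labels say in words that each library is a separate mouse, so p-values measure the spread between these libraries.

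Interferons bind receptors on the cell surface, which act through the kinases JAK1, JAK2 and TYK2. Type I and III interferons lead to a complex holding STAT2 and IRF9 that binds a DNA element called the ISRE, while interferon gamma acts through an element called the GAS. The genes switched on in this way detect foreign nucleic acids, block steps of viral growth, mark or destroy vacuoles that hold microbes, and prepare peptides for display to T cells. In liver, hepatocytes, macrophages and endothelial cells all carry interferon receptors.

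The promoters below show where such elements stand in members that moved in different ways. Of the 38 genes, 30 matched an entry in a RefSeq promoter table (build GRCm38.p6, 250 bases before the transcription start to 50 after it, 300 bases in all). The letters GAAANNGAAA, read on either strand and taken as an ISRE core, occurred in 14 of the 30 (46.7%) and in 3.99% of all 27025 symbols of the table. The letters TTCNNNGAA, taken as a GAS core, occurred in 8 of the 30 (26.7%) and in 9.55% of all symbols. Both were found in 4 of the 30 and neither in 12. For the 6 genes shown, the last 160 bases before the start are printed 5′ to 3′ on the gene's own strand, with matches to either core in capitals. Isg15, Ifit1, Ifit3 and Rsad2 stand for genes that rose with the diet and were lower under BBBPH, Bst2 for the opposite pattern, and Irf1 for a gene that rose and was not called lower under BBBPH.
Isg15 (chr4:156200819-156200978, minus strand): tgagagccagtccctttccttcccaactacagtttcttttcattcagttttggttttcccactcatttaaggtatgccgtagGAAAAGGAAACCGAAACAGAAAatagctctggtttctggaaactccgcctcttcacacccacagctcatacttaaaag
Ifit1 (chr19:34640729-34640888, plus strand): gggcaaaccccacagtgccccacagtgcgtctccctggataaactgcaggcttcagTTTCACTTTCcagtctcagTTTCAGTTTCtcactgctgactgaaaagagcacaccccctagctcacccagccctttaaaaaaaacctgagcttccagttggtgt
Ifit3 (chr19:34583369-34583528, plus strand): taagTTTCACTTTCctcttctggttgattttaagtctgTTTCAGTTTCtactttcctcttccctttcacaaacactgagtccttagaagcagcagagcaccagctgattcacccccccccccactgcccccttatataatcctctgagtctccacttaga
Rsad2 (chr12:26456453-26456612, minus strand): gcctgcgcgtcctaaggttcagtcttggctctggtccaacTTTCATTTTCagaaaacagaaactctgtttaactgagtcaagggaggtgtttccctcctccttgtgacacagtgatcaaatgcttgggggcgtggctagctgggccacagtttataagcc
Bst2 (chr8:71537473-71537632, minus strand): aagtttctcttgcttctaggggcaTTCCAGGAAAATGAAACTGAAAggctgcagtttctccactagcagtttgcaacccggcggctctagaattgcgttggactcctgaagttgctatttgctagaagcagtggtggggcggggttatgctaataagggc
Irf1 (chr11:53769854-53770013, plus strand): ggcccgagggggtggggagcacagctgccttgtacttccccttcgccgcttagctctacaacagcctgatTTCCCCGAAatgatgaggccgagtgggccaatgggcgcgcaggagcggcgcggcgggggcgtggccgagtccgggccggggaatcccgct

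The Isg15 promoter held 3 overlapping ISRE cores, which began 78, 72 and 66 bases before the start. In Ifit1 the cores began at 104 and 85 bases before the start, in Ifit3 at 156 and 122, and in Rsad2 a single core began at 120. The Bst2 promoter held 2 ISRE cores of the same form, at 130 and 124 bases, and a GAS core that overlapped the first of them and began at 136. Irf1 held a GAS core at 90 bases and no ISRE core in the 300 bases searched. A match is a stretch of letters and not a measured binding site.

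The libraries held between 35395712 and 39624160 fragments. FPKM is the number of fragments per kilobase of gene, scaled to the size of the library, and 1 fragment in a gene 1 kilobase long was worth 0.0252 to 0.0283 FPKM. Levels are given as mean ± SD in FPKM (n = 5 libraries), and differences as log2 fold changes of FPKM + 1 with their standard error (SE). The addition of 1 understates the change of genes near 1 FPKM. Differences were tested with limma over the 9575 genes whose mean reached 1 FPKM. Those with an adjusted p under 0.05 are called different (Benjamini and Hochberg, over all 9575). Of the 38 genes, 37 passed that filter. In liver as bulk tissue, fewer cells of a type and less RNA per cell cannot be told apart.

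There were 3 libraries that stood apart from the rest of their group. In model library 1_4 the acute-phase gene Saa2 stood at 14970 FPKM, against 61.6 to 194 in the other 4 model libraries. BBBPH library 2_2 held the pancreatic transcript Ctrb1 at 978 FPKM, and control library 2_1 the muscle transcript Tnnt3 at 70.0 FPKM, while neither gene exceeded 1 FPKM in any other library. The labelled tissue was checked against 6 hepatocyte markers, whose summed level was at least 31500 FPKM in every library. Counts of genes without these 3 libraries are given beside the results.

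**Figure D1:**
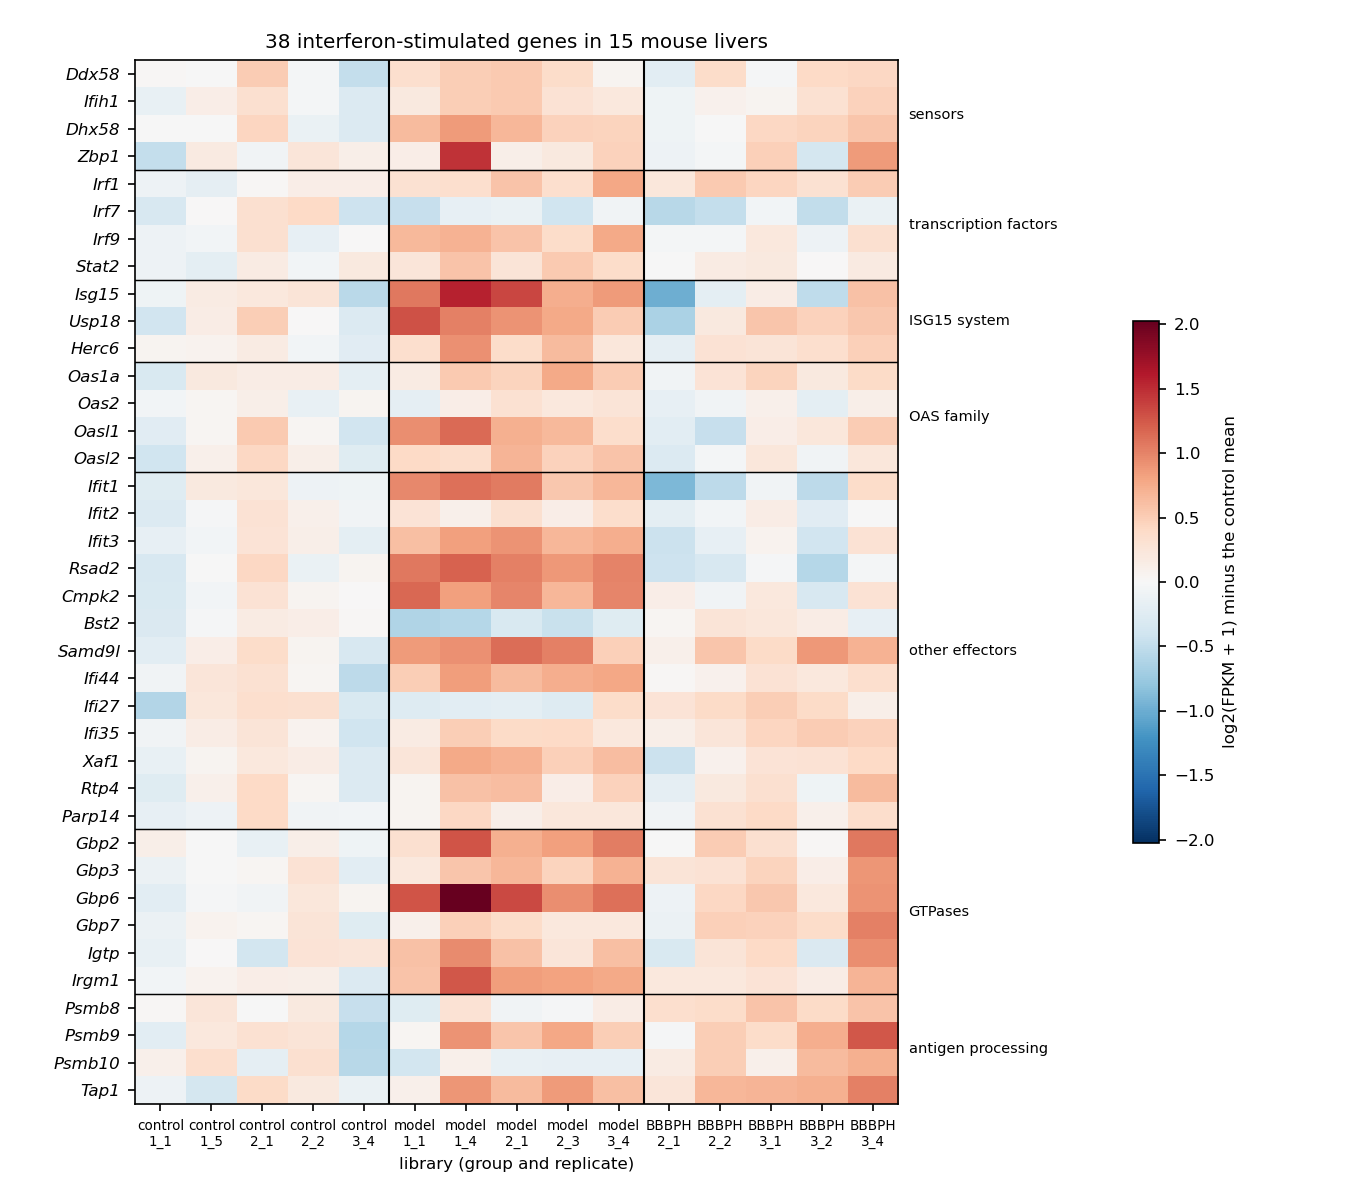
Levels of the 38 genes (rows, grouped by role) in the 15 libraries (columns), as log2(FPKM + 1) minus the mean of the 5 control libraries. Red is above and blue below the control mean; most rows are red in the model columns, with Bst2, Irf7, Ifi27 and Psmb10 as rows with at least 4 blue model columns.

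In the model livers most of the 37 tested genes were higher than in the controls. The test called 25 higher and 1 lower (70.3%), where 38.6% of all genes tested were called, 29.9% higher and 8.64% lower. The median log2 difference of the 37 was 0.52, against 0.12 over all genes. In 17 of the 37 the control and model libraries did not overlap, as was the case for 23.9% of all genes. Without the 3 libraries that stood apart, 26 were called higher and 1 lower. When libraries were scaled by median ratios, the split over all genes moved from 2865 higher and 827 lower to 1618 and 1669, while that of the interferon-stimulated genes was 22 and 1. Quantile scaling gave 1499 and 1742 over all genes, and 21 and 1 among the interferon-stimulated genes.

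Under BBBPH the direction was mostly the other way. Against the model livers, 15 of the 37 were called lower and 3 higher (Bst2, Psmb8 and Psmb10), or 48.6%. Of all genes tested 26.5% were called, 12.2% lower and 14.2% higher. The median log2 difference was -0.30, against 0.02 over all genes. Libraries did not overlap in 13 of the 37, and in 17.0% of all genes. Without the 3 libraries that stood apart, 12 were lower and 3 higher. Both comparisons used the same 5 model libraries, so a chance deviation of these libraries would move them in opposite directions.

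Against the controls, BBBPH livers were called higher in 7 of the 37 (18.9%) and lower in none, where 28.1% of all genes were called, 24.4% higher and 3.7% lower. That share was below that of all genes. The median log2 difference was 0.20, against 0.13 over all genes. Libraries did not overlap in 3 of the 37 (Irf1, Irgm1 and Psmb8), and in 17.5% of all genes. The 7 were Irf1, Samd9l, Ifi35, Gbp3, Gbp7, Psmb8 and Tap1. Under median-ratio scaling 1 was called higher (Tap1) and 1 lower (Irf7), and under quantile scaling 1 higher (Tap1) and 2 lower (Irf7 and Rsad2). The mean of the BBBPH libraries lay between those of control and model in 21 of the 38 genes, above both in 9 and below both in 8.

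By the calls in the 3 comparisons, the tested genes fell into a few patterns. How many of all genes tested held each pattern was not counted, so the counts below describe this list alone. A group of 14 rose in the model, was lower under BBBPH than in the model and was not called against control: Irf9, Stat2, Isg15, Usp18, Oasl1, Oasl2, Ifit1, Ifit3, Rsad2, Cmpk2, Ifi44, Xaf1, Gbp6 and Irgm1. Another 5 rose in the model, were not called between BBBPH and model, and were higher under BBBPH than in control: Irf1, Samd9l, Ifi35, Gbp3 and Tap1. A further 6 were called only between model and control, namely Ifih1, Dhx58, Herc6, Oas1a, Gbp2 and Igtp. The remaining patterns were held by 1 gene each (Bst2, Psmb8, Psmb10, Ifit2 and Gbp7), and 7 genes were called nowhere (Ddx58, Zbp1, Irf7, Ifi27, Rtp4, Parp14 and Psmb9).

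**Figure D2:**
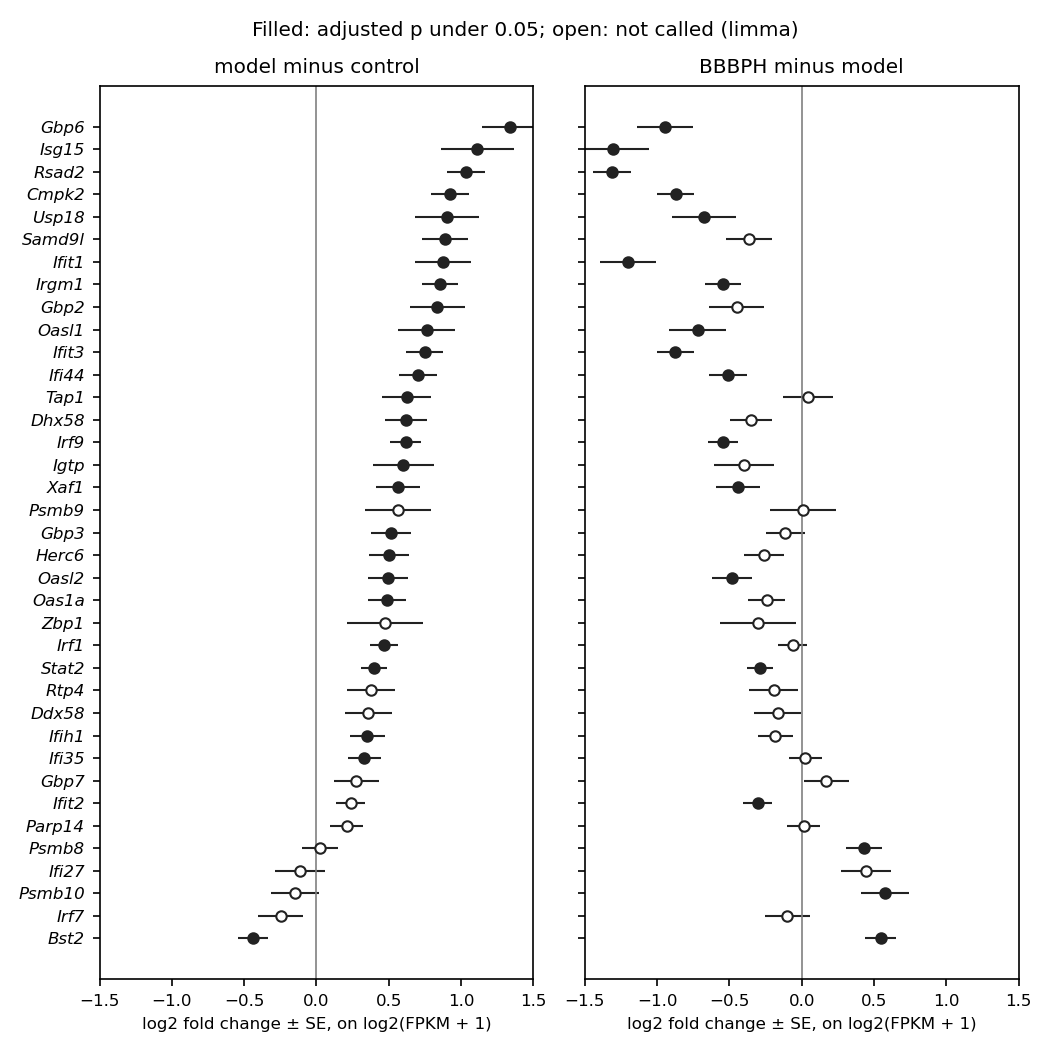
Log2 fold change of FPKM + 1 with its standard error for the 37 tested genes, model minus control (left) and BBBPH minus model (right), in the same order of genes. Filled points passed an adjusted p of 0.05; on the left all filled points but Bst2 lie above 0, and on the right Bst2, Psmb8 and Psmb10 are the filled points above 0.

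Of the 4 nucleic acid sensors on the list, 2 rose in the model and none was called between BBBPH and model. Over all genes tested, 29.9% were called higher in the model, and 26.5% were called between BBBPH and model. The counts by role, here and below, rest on few genes and stand against these shares. Ddx58 encodes RIG-I and Ifih1 MDA5, which recognise viral RNA in the cytosol, Dhx58 encodes their relative LGP2, and Zbp1 a sensor of nucleic acids in the Z form. Dhx58 stood at 2.6, 2.59, 3.86, 2.30 and 1.97 FPKM in the controls, at 4.64, 5.53, 4.76, 4.01 and 3.92 in the model and at 2.41, 2.58, 3.85, 3.96 and 4.32 under BBBPH. All model libraries were above all controls, and the BBBPH libraries spread over both ranges. The model exceeded control by 0.62 on the log2 scale (SE 0.14, adjusted p = 0.0037), and BBBPH minus model was -0.35 (adjusted p = 0.088, not called). Ifih1 rose from 5.25 ± 1.03 to 6.93 ± 0.89 FPKM (log2 difference 0.35, adjusted p = 0.033) and stood at 6.01 ± 1.08 under BBBPH. Ddx58 had means of 4.72, 6.21 and 5.48 FPKM in control, model and BBBPH and was not called (adjusted p = 0.094 for model against control). In Zbp1, model library 1_4 alone reached 9.996 FPKM, while the other 4 model libraries were at 3.36 to 4.51.

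Among the transcription factors, Irf9 and Stat2, whose products meet in the complex that binds the ISRE, shared the first pattern. Irf9 stood at 8.19, 8.59, 11.4, 7.81 and 8.92 FPKM in the controls, at 14.6, 15.2, 13.9, 11.9 and 15.8 in the model, and at 8.68, 8.66, 10.4, 8.22 and 11.4 under BBBPH. The model libraries lay above all 10 others. The log2 difference was 0.62 for model minus control (SE 0.11, adjusted p = 0.00046) and -0.55 for BBBPH minus model (adjusted p = 0.0016), while BBBPH and control differed by 0.07 (adjusted p = 0.64). Stat2 rose from 6.97 ± 0.95 to 9.49 ± 1.117 FPKM (adjusted p = 0.003) and was 7.56 ± 0.59 under BBBPH (log2 difference from the model -0.29, adjusted p = 0.027). The BBBPH call of Stat2 ended in several fits named further on.

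Irf1 and Irf7, both activators of interferon and interferon-stimulated genes, went other ways. Irf1 was 6.71 ± 0.74 FPKM in control, 9.71 ± 1.61 in the model and 9.21 ± 0.92 under BBBPH, with all 5 libraries of both diet groups above all controls. The log2 difference from control was 0.47 in the model (adjusted p = 0.002) and 0.41 under BBBPH (adjusted p = 0.0085), and -0.06 between BBBPH and model, with a 95% interval of -0.27 to 0.15. Irf7, often among the genes most responsive to type I interferon, was not called in any comparison. It stood at 25.6, 32.4, 40.7, 42.9 and 24.0 FPKM in the controls, at 23.2, 28.8, 29.2, 24.2 and 30.5 in the model, and at 21.5, 22.8, 31.2, 22.6 and 29.2 under BBBPH. The model mean was below the control mean (log2 difference -0.25, 95% interval -0.58 to 0.08, adjusted p = 0.22), and the 3 groups overlapped.

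Isg15 encodes a small ubiquitin-like protein that is attached to other proteins, in mice mainly by the ligase Herc6, and removed by Usp18, which also damps signalling at the type I receptor. All 3 genes rose in the model, where 29.9% of all genes tested were called higher. Isg15 stood at 5.72, 7.03, 7.35, 7.56 and 3.89 FPKM in the controls, at 14.0, 20.1, 17.3, 10.9 and 12.0 in the model, and at 2.63, 5.26, 6.92, 4.01 and 9.81 under BBBPH. The lowest model library was above the highest of the other 10, and the BBBPH libraries straddled the control range. Isg15 was 2.35 times as abundant in the model as in control (log2 difference 1.11, SE 0.25, adjusted p = 0.0029), and under BBBPH 0.386 times as abundant as in the model (log2 difference -1.30, adjusted p = 0.0015). It rested on 76 to 559 fragments per library. Usp18 went from 3.84 ± 1.23 to 7.96 ± 1.79 FPKM (log2 difference 0.90, adjusted p = 0.0053) and to 4.76 ± 1.64 under BBBPH (adjusted p = 0.035, with overlapping libraries). Herc6 rose from 1.93 ± 0.30 to 3.19 ± 0.86 FPKM (adjusted p = 0.01), and its 2.49 ± 0.56 under BBBPH was not called against the model (adjusted p = 0.18). Of the transcribed stretches of 50 bases of Herc6, 23.8% also occur in the overlapping gene Gm45193.

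**Figure D3:**
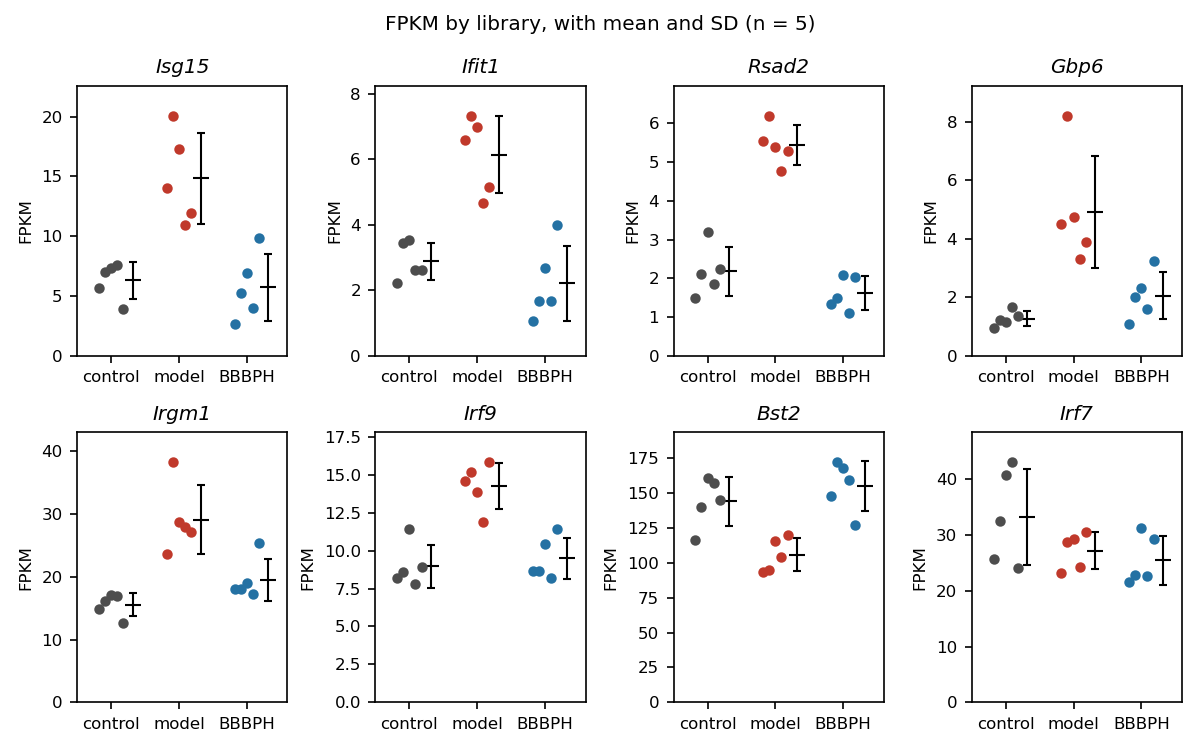
FPKM in each library (points) with the mean and SD of the 5 libraries (bars) for 8 of the genes, each axis starting at 0. In Isg15, Ifit1, Rsad2, Gbp6 and Irf9 the model libraries lie above all others, in Irgm1 one BBBPH library (25.4) reaches the lowest model library (23.6), Bst2 is lower in the model, and Irf7 overlaps throughout.

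The oligoadenylate synthetase family senses double-stranded RNA, and its active members switch on the nuclease RNase L. Oas2 was at 0.329, 0.481 and 0.293 FPKM in control, model and BBBPH and fell under the filter, with as few as 25 fragments in a library. The other 3 rose in the model, where 29.9% of all genes tested were called higher. Oasl1, in mice an inhibitor of the translation of Irf7, rose from 2.87 ± 1.002 to 5.51 ± 1.34 FPKM (log2 difference 0.76, adjusted p = 0.0073) and was 2.99 ± 1.05 under BBBPH (log2 difference from the model -0.72, adjusted p = 0.014). Oasl2 went from 2.24 ± 0.72 to 3.48 ± 0.42 FPKM and back to 2.22 ± 0.47, with log2 differences of 0.49 (adjusted p = 0.011) and -0.48 (adjusted p = 0.018). Oas1a rose from 2.48 ± 0.54 to 3.87 ± 0.71 FPKM (adjusted p = 0.0078), and its 3.11 ± 0.56 under BBBPH was not called. Of the transcribed stretches of 50 bases of Oas1a, 57.6% also occur in its neighbour Oas1g, so that reads may have been divided between both.

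The other antiviral effectors included Rsad2, whose log2 reduction under BBBPH was the largest of the 37. It encodes viperin, an enzyme that makes a chain-terminating nucleotide, and Cmpk2 is the mitochondrial nucleotide kinase gene that lies beside it on chromosome 12. Rsad2 stood at 1.5, 2.10, 3.20, 1.86 and 2.25 FPKM in the controls, at 5.54, 6.19, 5.38, 4.77 and 5.30 in the model, and at 1.33, 1.49, 2.10, 1.11 and 2.04 under BBBPH. No model library came near the highest of the other 10, at 3.20. The log2 difference was 1.03 for model minus control (SE 0.13, adjusted p = 4.3e-05) and -1.31 for BBBPH minus model (adjusted p = 1e-05). BBBPH minus control came to -0.28 (adjusted p = 0.12). Cmpk2 stood at 0.79, 1.14, 1.72, 1.29 and 1.23 FPKM in the controls, at 3.93, 2.92, 3.38, 2.52 and 3.39 in the model, and at 1.44, 1.11, 1.57, 0.761 and 1.73 under BBBPH. Again no model library overlapped the rest, with log2 differences of 0.92 (adjusted p = 9.8e-05) and -0.87 (adjusted p = 0.00022). The calls of Rsad2 and Cmpk2 held in both of these comparisons in all fits run for them.

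The Ifit proteins bind viral RNA and hinder its translation. Ifit1 stood at 2.24, 3.44, 3.54, 2.61 and 2.61 FPKM in the controls, at 6.58, 7.32, 6.995, 4.65 and 5.16 in the model, and at 1.05, 1.68, 2.68, 1.68 and 3.99 under BBBPH. The model libraries were above the rest, and 4 of the 5 BBBPH libraries were below 3 FPKM. Log2 differences were 0.87 (SE 0.19, adjusted p = 0.0027) for model minus control and -1.20 (adjusted p = 0.00039) for BBBPH minus model. Ifit3 went from 4.56 ± 0.78 to 8.28 ± 0.78 FPKM and to 4.14 ± 1.11 under BBBPH, with differences of 0.75 (adjusted p = 0.00049) and -0.87 (adjusted p = 0.00022). Its near copy Ifit3b shares 51.2% of its stretches of 50 bases. Ifit2 was low (1.36, 1.77 and 1.25 FPKM) and was called between BBBPH and model alone (-0.31, adjusted p = 0.037).

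Bst2, the gene of tetherin, which holds budding virus particles at the cell surface, was by far the most abundant of the antiviral group and the 1 gene of it called lower in the model. It stood at 116, 140, 160, 157 and 145 FPKM in the controls, at 93.3, 94.9, 116, 104 and 120 in the model, and at 148, 172, 168, 159 and 127 under BBBPH. Model library 3_4 alone lay above the lowest control library, and all BBBPH libraries exceeded all model libraries. The log2 difference was -0.44 for model minus control (SE 0.11, adjusted p = 0.0045), 0.55 for BBBPH minus model (adjusted p = 0.0015) and 0.11 for BBBPH minus control (adjusted p = 0.47). Ifi27, next in abundance, had means of 76.1, 69.0 and 93.2 FPKM in control, model and BBBPH. It was not called (BBBPH minus model 0.44, adjusted p = 0.07), and 4 of its 5 model libraries were between 61.0 and 64.1 FPKM with the last at 95.5.

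Of the remaining effectors, Samd9l, a restrictor of growth and viral translation, rose from 2.65 ± 0.71 to 5.73 ± 1.09 FPKM in the model (log2 difference 0.89, adjusted p = 0.00062). Its level under BBBPH, 4.26 ± 1.05 FPKM, was not called against the model (adjusted p = 0.11) and was called above control (adjusted p = 0.024). Ifi44 went from 1.20 ± 0.47 to 2.52 ± 0.32 FPKM (adjusted p = 0.00083) and to 1.48 ± 0.22 under BBBPH (adjusted p = 0.0097). Xaf1, a partner of the apoptosis inhibitor XIAP, rose from 1.22 ± 0.31 to 2.28 ± 0.45 FPKM (adjusted p = 0.0084) and was 1.45 ± 0.51 under BBBPH (adjusted p = 0.042). Ifi35 was 10.04 ± 1.84 FPKM in control and called higher in both diet groups, at 12.8 ± 1.3 in the model (adjusted p = 0.034) and 13.04 ± 1.62 under BBBPH (adjusted p = 0.033). Of the exonic bases of Ifi35, 16.8% overlap the opposite-strand gene Gm11626. The receptor transporter Rtp4 and the ADP-ribosyltransferase Parp14 were not called, with model means of 7.11 and 5.70 FPKM against control means of 5.26 and 4.84.

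The interferon-inducible GTPases act on the membranes of vacuoles that hold microbes. Guanylate-binding proteins and the smaller immunity-related GTPases Igtp and Irgm1 make up 6 genes of the list, of which 5 rose in the model and 2 were lower under BBBPH. Among all genes tested, 29.9% were called higher in the model and 12.2% lower under BBBPH than in it. Gbp6 stood at 0.959, 1.23, 1.16, 1.66 and 1.36 FPKM in the controls, at 4.496, 8.203, 4.73, 3.32 and 3.90 in the model, and at 1.10, 2.02, 2.31, 1.61 and 3.26 under BBBPH. The lowest model library was above all others, and library 1_4 was the highest. The model level was 3.87 times that of control (log2 difference 1.34, SE 0.19, adjusted p = 0.00012), and BBBPH was lower than the model by a log2 difference of -0.94 (adjusted p = 0.0022). Gbp6 shares 59.7% of its stretches of 50 bases with other genes, mostly the overlapping Gm43302, so its level is uncertain. Irgm1, a regulator of the other immunity-related GTPases, was 15.5 ± 1.9 FPKM in control, 29.1 ± 5.5 in the model and 19.6 ± 3.3 under BBBPH. Its log2 differences were 0.85 (adjusted p = 0.00013) and -0.55 (adjusted p = 0.0047), and BBBPH library 3_4, at 25.4 FPKM, was the one that overlapped the model.

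The other 4 GTPases were not called between BBBPH and model. Gbp2 went from 3.31 ± 0.37 to 6.85 ± 1.89 FPKM (adjusted p = 0.0032) and stood at 4.83 ± 1.92 under BBBPH (difference from the model -0.45, 95% interval -0.86 to -0.05, adjusted p = 0.094). Gbp3 rose from 2.37 ± 0.46 to 3.81 ± 0.63 FPKM (adjusted p = 0.0078) and remained at 3.498 ± 0.997 under BBBPH. Gbp7 was 2.17 ± 0.42, 2.83 ± 0.41 and 3.42 ± 1.25 FPKM and was called only for BBBPH against control (adjusted p = 0.044). Igtp rose from 13.9 ± 2.7 to 21.6 ± 4.0 FPKM (adjusted p = 0.034). Under BBBPH, Igtp spread from 10.9 FPKM in library 2_1 to 27.3 in library 3_4.

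Psmb8, Psmb9 and Psmb10 are the catalytic subunits of the immunoproteasome, which replace Psmb5, Psmb6 and Psmb7 of the standard proteasome, and Tap1 is a subunit of the transporter that carries the peptides toward MHC class I. Of these 4 genes 1 rose in the model (Tap1), and none was lower under BBBPH than in it. For all genes tested these shares were 29.9% and 12.2%. Psmb8 stood at 23.6, 27.7, 22.9, 26.7 and 16.5 FPKM in the controls, at 19.4, 28.5, 22.1, 22.8 and 25.8 in the model, and at 29.5, 30.3, 34.9, 30.6 and 35.2 under BBBPH. Control and model overlapped over most of their ranges, and all BBBPH libraries were above both. The log2 difference was 0.02 for model minus control (95% interval -0.24 to 0.29), 0.43 for BBBPH minus model (SE 0.12, adjusted p = 0.019) and 0.45 for BBBPH minus control (adjusted p = 0.016). Part of the Psmb8 exons, 498 bases, overlaps the opposite-strand gene Gm20496, whose reads cannot be told apart without strand.

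Psmb10 had a similar profile, at 18.7, 22.2, 15.2, 21.9 and 11.4 FPKM in the controls, at 13.2, 18.7, 15.5, 15.5 and 15.5 in the model, and at 19.6, 24.9, 18.8, 27.6 and 29.4 under BBBPH. BBBPH exceeded the model without overlap (log2 difference 0.57, SE 0.17, adjusted p = 0.018), and was not called against control (0.42, adjusted p = 0.067). Psmb9 was 8.41 ± 2.28, 12.8 ± 3.0 and 13.2 ± 4.9 FPKM in control, model and BBBPH and was not called (adjusted p = 0.061 and 0.071 against control). Tap1 rose from 5.26 ± 1.31 to 8.66 ± 1.93 FPKM in the model (log2 difference 0.62, adjusted p = 0.0098) and was at 8.92 ± 1.85 under BBBPH (0.67 above control, adjusted p = 0.011). Psmb9 and Tap1 lie head to head and share 212 exonic bases on opposite strands.

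The standard subunits moved differently. Psmb5 rose from 66.8 to 86.3 FPKM in the model (adjusted p = 0.0021) and Psmb6 from 93.2 to 107 (adjusted p = 0.042), while Psmb7 (119 and 133 FPKM) was not called, and none of the 3 was called between BBBPH and model. As a share of its standard partner, Psmb8 amounted to 35.2% ± 6.2 in control, 27.7% ± 5.6 in the model and 43.0% ± 5.0 under BBBPH. For Psmb10 the shares were 14.8% ± 2.9, 11.9% ± 2.6 and 19.2% ± 3.1, and for Psmb9 8.96% ± 2.10, 12.0% ± 2.8 and 12.8% ± 4.4. These shares are a description and were not tested.

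**Figure D4:**
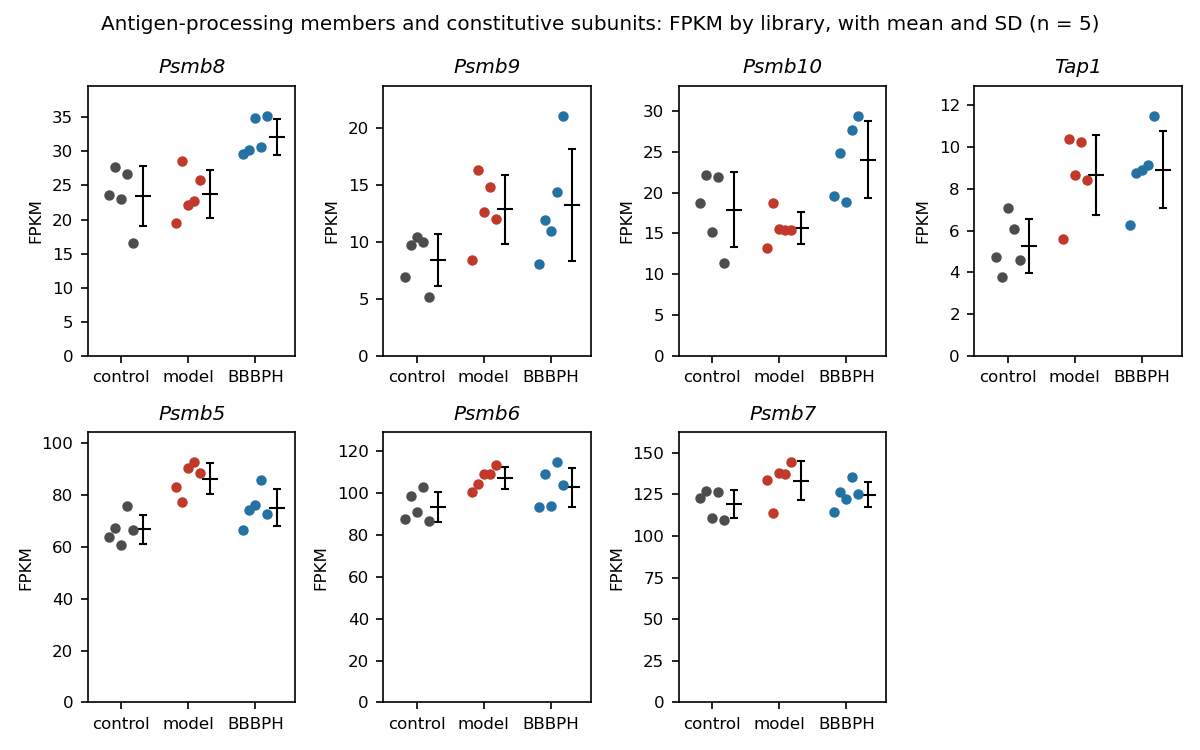
FPKM in each library (points) with the mean and SD of the 5 libraries (bars) for the immunoproteasome subunits Psmb8, Psmb9 and Psmb10, for Tap1, and for the standard subunits Psmb5, Psmb6 and Psmb7, each axis starting at 0. The BBBPH libraries of Psmb8 lie at 29.5 to 35.2, above all others, while the mean of Psmb5 is highest in the model.

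The rest of the pathway was read from lists fixed beside these 38 genes. Of 21 interferon genes, Ifnk and Ifng were the ones in the table, both with group means under 0.1 FPKM and not tested. Of the 9 receptors, kinases and STAT genes tested and reported here, 4 were called higher in the model (44.4%, against 38.6% of all genes called in either direction and 29.9% called higher). They were Jak1 (log2 difference 0.21), Stat3 (0.47), Il10rb (0.29) and Tyk2 (0.26), with adjusted p from 0.0085 to 0.044. The receptor chains Ifnar1 and Ifngr2 were called for BBBPH against control alone (0.33 and 0.46 higher, adjusted p = 0.017 and 0.019).

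Upstream of interferon production, 6 of 16 tested genes rose in the model (37.5%) and 3 were lower under BBBPH than in it (18.8%). Over all genes the shares were 29.9% called higher and 12.2% called lower. Ticam1, the adaptor that links the double-stranded RNA receptor TLR3 to interferon induction, stood at 2.66, 2.88, 4.13, 3.33 and 3.49 FPKM in the controls, at 9.09, 9.92, 6.60, 6.45 and 6.80 in the model, and at 4.39, 4.41, 4.29, 4.31 and 4.25 under BBBPH. The 3 ranges did not overlap. Log2 differences were 1.02 (adjusted p = 1.3e-05) for model minus control, -0.70 (adjusted p = 0.00035) for BBBPH minus model and 0.32 (adjusted p = 0.041) for BBBPH minus control. The signalling adaptor Traf3 (0.41 and -0.26) and the transcription factor Irf8 (0.52 and -0.41) were called in both of the first comparisons as well. The kinase gene Tbk1 rose in the model (0.46, adjusted p = 0.00042) and was 0.43 above control under BBBPH (adjusted p = 0.0015). Tlr3 itself and the ubiquitin ligase gene Trim56 were higher under BBBPH than in control, by 0.36 (adjusted p = 0.0077) and 0.27 (adjusted p = 0.039).

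Of 11 negative regulators of the pathway, 6 rose in the model (54.5%, against 29.9% of all genes called higher). Another count, of those lower under BBBPH than in the model, was 2 (18.2%, against 12.2% of all genes called lower). Ptpn6, a phosphatase of leukocytes, differed by 0.60 (adjusted p = 0.00017) and -0.26 (adjusted p = 0.0498), and the DNA exonuclease Trex1 by 0.34 (adjusted p = 0.0063) and -0.24 (adjusted p = 0.0496). Samhd1, which breaks down the building blocks of DNA, and the RNA-editing enzyme gene Adar rose in the model by 0.40 (adjusted p = 0.0038) and 0.30 (adjusted p = 0.02). Against control, BBBPH livers were higher in Nlrx1 (0.40), Ptpn6 (0.35) and Samhd1 (0.34), with adjusted p from 0.0077 to 0.017. Socs3, the feedback inhibitor of JAK signalling, was called lower for BBBPH against control (-1.29, adjusted p = 0.014), with means of 6.97, 3.94 and 1.88 FPKM in control, model and BBBPH.

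A further list held interferon-stimulated genes outside the 38. Of 54 tested, 35 were called higher and 0 lower in the model (64.8%, where 38.6% of all genes were called). Under BBBPH against the model, 17 were called lower and 0 higher (31.5%, where 26.5% of all genes were called). Cxcl10, a chemokine for T cells, stood at 1.84, 2.45, 2.06, 2.69 and 3.002 FPKM in the controls, at 13.3, 15.5, 9.45, 6.27 and 6.03 in the model, and at 1.95, 3.54, 3.46, 2.203 and 3.67 under BBBPH. Its log2 differences were 1.63 (adjusted p = 6.8e-05) and -1.43 (adjusted p = 0.00027). Gbp10, a guanylate-binding protein, followed with 1.46 (adjusted p = 0.00014) and -1.41 (adjusted p = 0.00025), from means of 1.29, 5.40 and 1.43 FPKM. Lgals9, a galectin, was far more abundant, at 184, 323 and 217 FPKM (0.81 and -0.59). Lgals3bp, a secreted protein that binds galectins, rose by 0.70 in the model (adjusted p = 0.00022). Ifit3b, the near copy of Ifit3, stood at 0.83 to 1.93 FPKM in the controls, at 2.09 to 3.43 in the model and at 0.67 to 1.59 under BBBPH. It was called higher in the model (adjusted p = 0.00076) and lower under BBBPH than in it (adjusted p = 0.0011). The genes most clearly above control under BBBPH were Dtx3l, Trim21, Parp9 and Ube2l6, by 0.47 to 0.54, and none of these 4 was called between BBBPH and model. Over all 100 tested pathway genes outside the 38 and reported here, 55 were called higher in the model (55.0%, against 29.9% of all genes). That count fell to 30 (with 1 lower) under median-ratio scaling. Between BBBPH and model, 24 were lower and 2 higher under BBBPH, both on FPKM as deposited and under median-ratio scaling. The share called, 26.0%, was near the 26.5% of all genes, of which 12.2% were called lower and 14.2% higher.

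Of 10 tested genes that process or load MHC class I peptides, 4 rose in the model (40.0%, near the 38.6% of all genes called). Calr and Pdia3, chaperones of the endoplasmic reticulum with many clients besides MHC class I, rose by 1.11 and 0.90 and were lower under BBBPH by log2 differences of -1.12 and -0.92 (adjusted p from 5.5e-05 to 9.5e-05). The other two were Tap2, the partner of Tap1 (0.27, adjusted p = 0.038), and B2m, the light chain of MHC class I (0.25, adjusted p = 0.042), and both calls ended in 12 other fits each. Against control, BBBPH livers were higher in Tap2, Psme1, Tapbp and Tapbpl, by 0.27 to 0.44 (adjusted p from 0.006 to 0.02). Psme1, an activator subunit of the proteasome, and the peptide-trimming Erap1 were higher under BBBPH than in the model by 0.27 (adjusted p = 0.019) and 0.26 (adjusted p = 0.0028).

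Levels of cell type markers also differed between the groups, and their part in these results was not tested. The counts of markers stand against the shares over all genes tested. Of these genes, 29.9% were called higher and 8.64% lower in the model than in control. Under BBBPH against the model, 14.2% were called higher and 12.2% lower. All 5 markers of leukocytes in general rose in the model, by log2 differences of 0.41 to 0.59. The calls of Laptm5, Ptprc and Coro1a were ended by no other fit without a block, whereas Cd52 and Cd53 lost theirs in 10 and 9 fits, among them both scalings, no filter and the fit without the 3 libraries that stood apart. The summed level of the 5 ranged from 39.2 to 46.2 FPKM in control, 49.1 to 82.2 in the model and 37.4 to 66.7 under BBBPH. Of the 5, Laptm5 was called lower under BBBPH than in the model, and Coro1a higher than in control (0.55, adjusted p = 0.017). Of 6 tested markers of recruited macrophages 4 rose in the model, namely Mmp12 (0.08, 4.20 and 0.65 FPKM in control, model and BBBPH), Trem2, Gpnmb and Ly6c2. All but Ly6c2 were lower under BBBPH than in the model. Mmp12, Trem2 and Gpnmb reached the mean of 1 FPKM needed for the test through the model group, where they were high. The filter thus partly set these counts in advance.

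Of 14 markers on a joint list for Kupffer cells and macrophages, Cd68 rose in the model (0.45, adjusted p = 0.021) and 13 were not called. The share called, 7.14%, was below the 38.6% of all genes. Another 3 were higher under BBBPH than in the model, namely Marco (1.08, adjusted p = 0.022), Timd4 (0.52, adjusted p = 0.041) and Cd163 (0.76, adjusted p = 0.045). Marco, a scavenger receptor, had means of 9.502, 17.3 and 41.3 FPKM in control, model and BBBPH, and was also called against control (1.84, adjusted p = 0.0013). The summed level of the 14 ranged from 490 to 653 FPKM in control, 516 to 827 in the model and 592 to 1010 under BBBPH. Of 5 tested neutrophil markers Csf3r (0.39) and S100a8 (2.03) rose in the model (40.0%, near the 38.6% of all genes called in either direction). Of 2 tested markers of T and natural killer cells Ccl5 did (0.66). The adjusted p of these 3 ran from 0.029 to 0.048. None of these 3 was called between BBBPH and model.

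Of the 6 markers of plasmacytoid dendritic cells 2 were abundant enough to test. Siglech and Ccr9 were under 0.5 FPKM in all group means. Ly6d, which other lymphoid cells and epithelia also make, stood at 0.86 to 2.999 FPKM in the controls, at 5.98 to 64.2 in the model and at 2.39 to 9.15 under BBBPH. The log2 difference was 3.14 for model minus control (adjusted p = 0.00014) and -2.14 for BBBPH minus model (adjusted p = 0.0031), and no fit without a block ended either call. The summed level of the 6 ranged from 1.74 to 16.1 FPKM in control, 7.89 to 65.2 in the model and 3.51 to 51.3 under BBBPH. The upper ends in control and BBBPH came from the libraries with muscle and pancreatic transcripts. Cox6a2 was at 11.87 FPKM in control library 2_1, and Klk1 at 48.34 FPKM in BBBPH library 2_2. In every other library both were under 1 FPKM. Klk1, the other tested marker, thus passed the filter through BBBPH library 2_2 alone.

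Of 6 endothelial markers 3 rose in the model and 1 was lower (66.7%, against 38.6% of all genes called). Lyve1, a hyaluronan receptor of sinusoidal and lymphatic endothelium, stood at 2.97 to 5.49 FPKM in the controls, at 11.4 to 16.4 in the model and at 3.59 to 6.77 under BBBPH. Its log2 differences were 1.36 for model minus control (adjusted p = 2.1e-05) and -1.26 for BBBPH minus model (adjusted p = 5.6e-05). Pecam1 (0.33) and Stab2 (0.22) rose as well, and Pecam1 was 0.30 above control under BBBPH. Kdr, a receptor for vascular growth factors, differed by -0.33 in the model (adjusted p = 0.025) and was 0.56 higher under BBBPH than in the model (adjusted p = 0.0014).

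Of 6 hepatocyte markers 5 were lower in the model, namely Cps1 (log2 difference -1.02), Serpina1c (-0.56), Alb (-0.55), Apoa1 (-0.40) and Serpina1a (-0.40). The call of Alb ended with no filter and under quantile scaling (adjusted p at least 0.29). Quantile scaling gives the gene ranked highest the same value in every library. Alb was the highest of the listed genes in every library, so that fit may not be able to test it. The call of Apoa1 ended in 7 fits, among them those without control 1_1, 1_5 or 3_4 and without the 3 libraries that stood apart (0.05 to 0.18). Apoa1 (0.83) and Serpina1a (0.38) were higher under BBBPH than in the model. Against control, BBBPH livers were lower in Cps1 (-0.73, adjusted p = 0.00076) and higher in Apoa1 (0.43, adjusted p = 0.03). The summed level of the 6 ranged from 60500 to 68500 FPKM in control, 31500 to 55000 in the model and 55200 to 65200 under BBBPH. The lowest model sum was that of library 1_4, which also stood apart in Saa2. Its Alb was at 21140 FPKM, against 27870 to 39800 in the rest of the model group.

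Within groups the 37 genes tended to be high or low in the same libraries. The deviations from the group means of the 666 pairs of genes had a median correlation of 0.51 over the 15 libraries, and 92.6% of the pairs were above 0, where the median over all genes tested was 0.07. These pairs share the libraries and, for some, reads. BBBPH library 2_1 was the lowest of its group in 26 of the 38 genes and the highest in 0, and library 3_4 the highest in 25, while they held those places in 37.3% and 15.6% of all genes. Control library 2_1 was the highest in 25 of the 38 (22.2% of all genes), model library 1_4 the highest in 21 (20.8%), and model library 1_1 the lowest in 22 (26.4%).

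Genes with and without an ISRE core held calls in both directions. Of the 14 tested genes with an ISRE core, 11 were called higher and 1 lower in the model, and 6 lower and 1 higher under BBBPH. Of the 16 without one, 11 were called higher in the model, and 7 lower and 2 higher under BBBPH. Of the 8 tested genes with a GAS core, 4 were called higher and 1 lower in the model, and 1 lower and 2 higher under BBBPH. Among the 22 without a GAS core, 18 were called higher in the model, and 12 lower and 1 higher under BBBPH. Of all genes tested, 29.9% were called higher and 8.64% lower in the model, and 12.2% lower and 14.2% higher under BBBPH. These counts are a description and were not tested.

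Some calls lay close to the threshold. Of 51 called values of the 37 genes over the 3 comparisons, 36 were ended by no alternative fit other than those with a block. The other 15 were ended by at least 1 other fit, though none of the 51 changed sign. For model against control, the call of Ifih1 ended without control library 1_1, 2_2 or 3_4 or model library 1_4 or 2_1, and that of Ifi35 without control 1_1 or 3_4 or model 1_4, 2_1 or 2_3. Both also ended under median-ratio and quantile scaling and with no filter, at adjusted p of 0.058 to 0.16 and 0.056 to 0.15. Igtp lost its call under the same 3 settings, without the 3 libraries that stood apart, and without control 1_1, 1_5 or 2_1 or model 1_1, 1_4, 2_1 or 3_4 (0.053 to 0.18). Oasl2 lost it under quantile scaling alone (0.053).

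For BBBPH against model, the call of Stat2 ended without the 3 libraries that stood apart and without BBBPH 2_1 or 3_2 or model 1_4 or 2_3 (adjusted p 0.059 to 0.087). That of Usp18 ended with no filter, without those 3 libraries, and without BBBPH 2_1 or 2_2 or model 1_1, 1_4 or 2_1 (0.058 to 0.091). Ifit2 lost its call with no filter and without BBBPH 2_1, 2_2 or 3_2 or model 1_1, 2_1 or 3_4 (0.057 to 0.091). Xaf1 did so in 11 fits, among them those without BBBPH 2_1 or 2_2, control 1_5, or model 1_4, 2_1, 2_3 or 3_4 (0.052 to 0.15). Psmb8 lost its call without model library 1_1 (0.054).

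The calls of BBBPH against control depended most on the fit. Irf1 and Psmb8 lost theirs under median-ratio and quantile scaling (adjusted p 0.087 to 0.089 and 0.06 to 0.1). Samd9l lost its call under both scalings and without BBBPH 3_2 or 3_4 or control 1_1 or 3_4 (0.054 to 0.089), and Ifi35 in the same fits, without BBBPH 3_1, in a fit of 2 groups and with no filter (0.054 to 0.17). Gbp3 did so in 12 fits, among them those without control 1_1, 1_5, 2_1 or 3_4 or BBBPH 3_1 or 3_4 (0.051 to 0.23). Gbp7 did so in 16, among them those without the same 4 controls, BBBPH 2_2, 3_1, 3_2 or 3_4, or model 2_1, 2_3 or 3_4 (0.051 to 0.2). Tap1 was the gene of the 7 whose call ended only with a block.

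The same held for some genes outside the 38. Between BBBPH and model, the call of Traf3 ended without the 3 libraries that stood apart and without model 1_4, 2_1 or 2_3 or BBBPH 3_4 (adjusted p from 0.056 to 0.093), and that of Laptm5 without those 3 libraries and without model 1_4 or 2_3 or BBBPH 3_2 (0.053 to 0.08). The lower levels of Irf8, Ptpn6, Trex1 and Gpnmb under BBBPH were each lost in 13 to 18 fits, most of them with 1 library left out. Between model and control, Stat3, Il10rb, Tyk2 and Psmb6 lost their calls in 9 to 11 fits, most of them of the same kind, and Jak1 under both scalings (0.31 to 0.32). Between BBBPH and control, Ticam1 lost its call in 14 fits, Ifnar1 under both scalings and without the 3 libraries that stood apart, and Ifngr2 in those fits and without BBBPH 3_2.

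Among the other genes named, the call for model against control ended in 12 fits for Tap2 and B2m, in 16 for S100a8, in 10 for Ccl5, in 8 for Csf3r and Ly6c2, in 6 for Stab2, in 5 for Cd68 and Kdr and in 3 for Adar. Model library 1_4 was one whose omission ended the call in all of these but B2m, Stab2 and Kdr, and control library 3_4 in all but Stab2, Kdr and Adar. Between BBBPH and model, Cd163 lost its call in 16 fits, Timd4 in 12 and Marco without BBBPH 3_2 or model 1_1 (adjusted p 0.053 to 0.061). Between BBBPH and control, Apoa1 and Trim56 lost theirs in 10 and 11 fits, Tapbp under both scalings and without BBBPH 3_2, and Tapbpl, Pecam1, Coro1a, Ptpn6 and Samhd1 under both scalings. Tap2, Tlr3 and Nlrx1 lost that call under quantile scaling alone, and Psme1 under median-ratio scaling alone.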

How the data were processed

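The labels' protocols give TRIzol extraction of total RNA and library construction with the VAHTS Universal V6 kit, with the strand setting unstated. The values used are FPKM as deposited by the authors, with 1 column per library. Tools named in the submitters' processing notes are DESeq2, fastp, HISAT2 and HTSeq, with mm10 as build and no role, order or version. The annotation is not given in the sources used here. The table of the series and the 15 single files held equal values.

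FPKM are not counts, so limma 3.58.1 (R 4.3.3, with statmod 1.5.0) was run on log2 values after a pseudocount of 1 FPKM. All 15 libraries entered, as 3 group means, with eBayes at trend=TRUE and 2-sided p. Depth was recovered from the whole-number ratios of the values. For 16975 of 17051 genes above 0, 100% of values came out within 0.02 of a whole fragment, and voom on these fragments was an alternative. Also tried were TPM, median-ratio and quantile scaling, the filter moved to 5 FPKM or dropped, a pseudocount of 0.1, trend=FALSE, robust=TRUE, library weights, 2 groups per fit, blocks, and each library left out. Leaving out the 3 libraries that stood apart was chosen after seeing the data. For the 8 pairs of libraries that share a replicate number across groups, correlations of the residuals ran from -0.33 to 0.02, so the numbers were not taken to pair libraries. That check did not cover the first digit of the number, whose meaning is not stated. The first digits were spread unevenly over the groups. No BBBPH number begins with 1, while some control and model numbers do. Any effect tied to the first digit would thus be partly confounded with BBBPH. The depth recovery and the limma procedure were tested on simulated data.

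The 38 genes and all other lists were chosen with earlier results of these data known. All 38 are accounted for. From each other list, the called genes with the smallest adjusted p were named, at most 4 per list and comparison, along with Psmb5, Psmb6, Psmb7 and the genes that mark libraries standing apart. Tyk2, Cd52, Siglech, Ccr9, Klk1, Cox6a2, Ifnk, Ifng, Ifitm2 and Ifitm3 were named outside that rule, after their values were seen. A further gene that the rule names is not reported here. Gene models and shared sequence are from GENCODE M21 on GRCm38, and promoters from RefSeq. Files were read and plotted in Python 3.11.15 (pandas 2.3.3, numpy 2.4.6, scipy 1.17.1, matplotlib 3.10.9).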

Additional observations from a re-analysis of the deposited data

Results flagged for a closer look

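In each group of 5 libraries, the highest and the lowest value of every gene was compared with its nearest neighbour. A gap above 0.71 of the whole range (Dixon's critical value for 5 samples) set a library apart, which chance does in about 1 of 20 groups. Among the 114 sets of 5 values, 5 were set apart in this way. In Zbp1, model library 1_4 stood at 10 FPKM (9.996), with the other 4 at 3.36 to 4.51. In Ifi27, model library 3_4 stood at 95.5 FPKM, with the others at 61.0 to 64.1. Parp14 was at 6.61 FPKM in control library 2_1 and at 4.13 to 4.58 in the other controls. Gbp6 was at 8.2 FPKM in model library 1_4 and at 3.32 to 4.73 in the rest of the model group. Irgm1 was at 25.4 FPKM in BBBPH library 3_4 and at 17.3 to 18.99 in the others. Model library 1_4 and control library 2_1 are also among the 3 libraries that stood apart on genes outside the list.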

How the results depend on the processing

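The count of interferon-stimulated genes called was 26 for model against control, 18 for BBBPH against model and 7 for BBBPH against control. With a filter at 5 FPKM, which left 20 of the 38 to test, these counts were 12, 9 and 4, and those over all genes 2259, 1634 and 1502. With the replicate number as a block (the replicate block), they were 8, 2 and 0, and over all genes 1315, 305 and 185; at an unadjusted p under 0.05 the block left 22, 13 and 4 in limma. The replicate block ended all but 10 of the 51 called values; the 10 were Rsad2 and Cmpk2 in both of the first comparisons and Irf1, Irf9, Ifit3, Samd9l, Gbp6 and Irgm1 for model against control. Between BBBPH and control the count was 4 in a fit of 2 groups, 4 with no filter, 2 with the first digit of the replicate number as a block, 2 under median-ratio scaling (1660 over all genes) and 3 under quantile scaling (1540). Leaving out 1 library in turn gave 23 to 30, 14 to 20 and 3 to 10; the last fell to 3 without control 1_1 and to 4 without control 3_4, BBBPH 3_2 or BBBPH 3_4. The cause of these shifts was not tested, except that the filter at 5 FPKM and the block leave fewer genes or fewer degrees of freedom. No called value changed sign under any of the 29 alternatives; of 60 uncalled values 17 did, all at an adjusted p of at least 0.417. Genes near 1 FPKM, such as Oas2 with 25 fragments in a library, are limited by depth. Scaling moved the median of all genes by up to 0.13 in log2, the size of the median difference between BBBPH and control.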

Other observations

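The abundant interferon-responsive membrane proteins outside the list were not called. Ifitm2 and Ifitm3, which hinder the fusion of viruses with endosomes, stood at 255 and 478 FPKM in control, 262 and 504 in the model and 309 and 598 under BBBPH. By limma, the adjusted p was 0.12 or more for Ifitm2 and 0.07 or more for Ifitm3 in all 3 comparisons.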
